A study of Mus musculus with 28 samples.

Results

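The cell cycle and proliferation genes described here are 45 genes chosen by name from the 53801 features of the expression table. The rule itself used no values, but the genes were chosen with earlier results of these data known. They comprise an S-phase part of 19 genes (Mcm2 to Mcm7, Pcna, Rrm1, Rrm2, Tyms, Tk1, Gins2, Cdc6, Cdc45, Uhrf1, Ccne1, Ccne2, E2f1 and E2f8) and a mitotic part of 24 genes (Mki67, Top2a, cyclins A2, B1 and B2, Cdk1, Cdc20, Cdca8, Birc5, both Aurora kinases, Bub1, Bub1b, Plk1, the kinesins Kif11, Kif20a and Kif23, Tpx2, Cenpa, Cenpe, Cenpf, Ube2c, Nusap1 and Prc1). The remaining 2, Stmn1 and Hmgb2, were placed in neither part, and all 45 symbols were found. Bulk Smart-Seq2 RNA-seq had been made from Treg cells sorted as TCR+CD4+CD25hi CD127lo, with CD8+ cells gated out, from spleens or from CT2A tumors, a murine glioblastoma (GBM) line grown in the forebrain. Tumor-bearing mice were given 4 doses of 250 µg, 1 every 3 days from a tumor size of 2 mm3, of IgG2a as isotype control or of αPD1 + αGITR, which are an antibody against the checkpoint receptor PD1 and an agonistic antibody against the co-stimulatory receptor GITR. Tissues were taken 2 days after the last dose, and the design text states that the samples came from different mice. Label numbers recur within groups, however (79_a to 79_d in splenic IgG2a, 70_a to 70_c and 72_b with 72_c in splenic αPD1 + αGITR, and 70_a with 70_b and 73_a with 73_b in GBM αPD1 + αGITR libraries), and the labels do not say what a number marks. The study's text on these libraries gives fewer animals per treatment than there are splenic libraries, against the design text, so some splenic libraries may share an animal. In all that follows n counts libraries and not mice, and where libraries share an animal the limma and permutation p-values are too small. The labels give neither the strain nor the age of these mice. In all, 27 libraries were used: 5 GBM IgG2a, 7 GBM αPD1 + αGITR, 7 splenic IgG2a and 8 splenic αPD1 + αGITR libraries. Libraries are called by the number and letter of their labels, such as 79_a, and 1 by its whole label, tumor_369_a.

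Cells that enter the cycle transcribe their cell cycle genes in waves. In late G1 and S phase, E2F factors, freed from the retinoblastoma protein by cyclin-dependent kinases, turn on genes for licensing and copying DNA and for making nucleotides. A later wave in G2 and M phase, controlled through CHR and CCAAT elements, supplies the spindle, the chromosomal passenger complex and the anaphase-promoting machinery. Treg cells in non-lymphoid and tumor tissue are known to cycle more than resting Treg cells of lymphoid organs, and agonists of TNF receptor family members such as GITR can drive T cell division. In bulk libraries, fewer cycling cells and less of these RNAs per cycling cell cannot be told apart.

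Promoter sequences are shown first, since the division into an S-phase and a mitotic part rests on these waves. The sequences did not enter the choice of genes. The parts follow the same waves, however, so their motif counts are no independent support for the division and describe no library. RefSeq windows on GRCm38, from 250 bases before to 50 after a start, were matched by symbol for 16 of 19 S-phase genes, 20 of 24 mitotic genes and Hmgb2. Windows were not used for Ccna2, Gins2, Kif20a, Aurkb, Tpx2, Stmn1, Ccne2 and Mcm4. E2F matches were any of 4 motifs searched, which were TTCCCGC along with TTCGCGC along with TTGCCGC along with TTGGCGC. CHR matches were TTTGAA and also TTCGAA. The CCAAT box was searched as its 5 letters, and both strands were searched for each motif. E2F matches on opposite strands can overlap, TTCGAA is its own complement, and an A before TTGGCGC also makes a CCAAT box. E2F letters were found in 9 of the 16 S-phase windows (56.2%) and 3 of the 20 mitotic windows (15.0%), against 10.9% of all 27025 symbols with a window. CHR letters were found in 4 S-phase windows (25.0%) and 16 mitotic windows (80%), against 21.7% of all. CCAAT boxes were found in 11 S-phase (68.8%) and 18 mitotic windows (90%), against 41.1% of all. The widest gap between the mitotic and the S-phase windows was in CHR letters. Below are the 180 bases before the start for 3 mitotic genes that are used as examples in the comparison of treatments, a ubiquitin-conjugating enzyme of the anaphase-promoting complex (Ube2c, chr2:164769749-164769928, plus strand), the mitotic kinase Cdk1 (chr10:69352913-69353092, minus strand) and topoisomerase IIα (Top2a, chr11:99024190-99024369, minus strand), and for 3 S-phase genes, the helicase subunits Mcm5 (chr8:75109329-75109508, plus strand) and Mcm6 (chr1:128359706-128359885, minus strand) and the large subunit of ribonucleotide reductase (Rrm1, chr7:102441515-102441694, plus strand). Capitals mark matches to any of the 3 motifs, and a match is a description of the letters and not of a bound site.
Ube2c: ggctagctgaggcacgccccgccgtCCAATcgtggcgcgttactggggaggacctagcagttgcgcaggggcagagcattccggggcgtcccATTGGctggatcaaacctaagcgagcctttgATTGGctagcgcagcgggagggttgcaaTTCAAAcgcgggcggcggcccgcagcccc
Cdk1: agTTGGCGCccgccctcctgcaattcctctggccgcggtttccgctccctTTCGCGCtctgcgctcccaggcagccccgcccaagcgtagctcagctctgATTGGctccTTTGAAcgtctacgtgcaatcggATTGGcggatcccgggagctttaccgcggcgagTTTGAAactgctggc
Top2a: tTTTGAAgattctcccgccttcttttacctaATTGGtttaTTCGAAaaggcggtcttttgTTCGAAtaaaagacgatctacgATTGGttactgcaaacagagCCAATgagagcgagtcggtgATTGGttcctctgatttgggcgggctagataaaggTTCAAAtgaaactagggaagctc
Mcm5: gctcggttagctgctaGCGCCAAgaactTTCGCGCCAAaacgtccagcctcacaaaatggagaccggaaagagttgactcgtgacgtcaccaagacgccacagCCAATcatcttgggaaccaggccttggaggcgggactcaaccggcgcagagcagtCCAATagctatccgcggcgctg
Mcm6: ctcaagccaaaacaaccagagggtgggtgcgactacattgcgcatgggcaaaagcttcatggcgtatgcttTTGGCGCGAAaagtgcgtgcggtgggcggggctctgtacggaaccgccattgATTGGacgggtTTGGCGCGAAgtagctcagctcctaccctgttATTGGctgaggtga
Rrm1: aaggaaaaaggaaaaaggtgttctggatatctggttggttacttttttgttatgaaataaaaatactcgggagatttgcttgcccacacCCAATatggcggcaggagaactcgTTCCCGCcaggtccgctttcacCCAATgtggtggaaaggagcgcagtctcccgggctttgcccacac
The Ube2c window holds 1 CHR match, 29 bases before the start, and CCAAT boxes before it. In the Cdk1 window, E2F matches lie 178 and 130 bases before the start and CHR matches 71 and 15 bases before it, so that this mitotic gene carries both kinds of letters. Mcm6 has 2 pairs of overlapping E2F matches, Mcm5 has 3 E2F matches within 164 bases and Rrm1 has 1 E2F match 67 bases before the start, and none of these 3 holds CHR letters in the part shown.

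**Figure D1:**
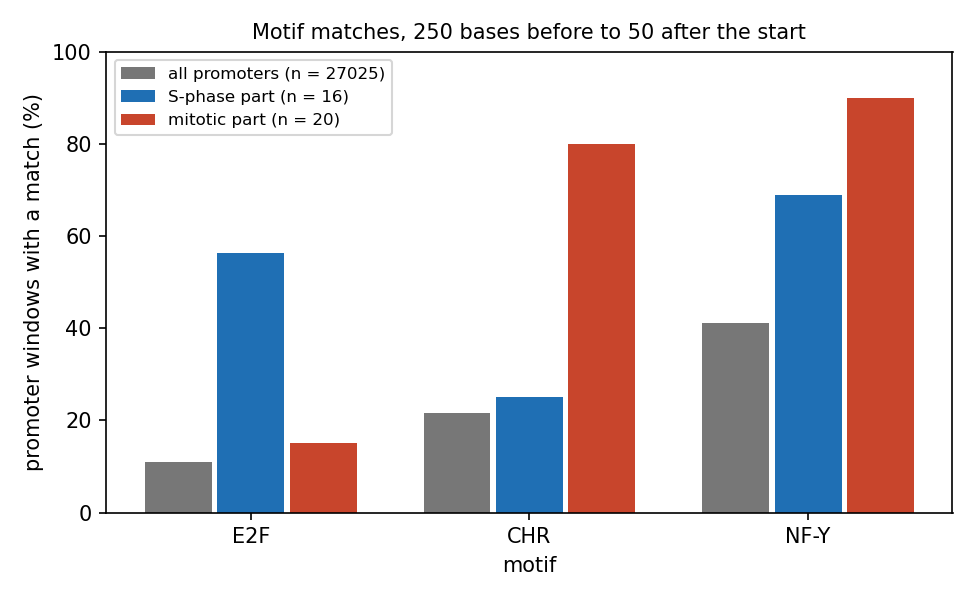
Bars give the percentage of promoter windows with at least 1 match to the E2F, CHR or CCAAT-box (NF-Y) letters, for all symbols with a window (grey), the S-phase part (blue, 16 genes) and the mitotic part (red, 20 genes). CHR matches stand at 80% in the mitotic part and 25.0% in the S-phase part, and E2F matches at 15.0% and 56.2%.

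Before the results, the libraries need a short account. Read depth is unknown, and the number of features above 1 TPM (a share of transcripts, corrected for transcript length) ran from 7702 (GBM IgG2a tumor_369_a) to 17460 (splenic αPD1 + αGITR 72_b). All 10 Treg and T cell markers were above 0 in at least 1 library of each group, and Foxp3 in all 27 libraries (21.5 to 440 TPM). The 7 CD8 and NK cell markers summed to 1.52 to 80.8 TPM per library. All 14 macrophage and microglia markers were above 0 in at least 1 library of each group. Their sum was 15245 TPM in GBM IgG2a 79_a and 6056 TPM in GBM αPD1 + αGITR 73_a, against 92.1 to 2206 TPM in the other GBM libraries and 35.2 to 855 TPM in splenic libraries. Of 10 erythroid markers, 6 were in the table, and their sum reached 1437 TPM in splenic αPD1 + αGITR 73_a and 293 TPM in 72_c, against 0 to 125 TPM in the other libraries. The 13 tumor and glial markers, which include Vim, summed to 697 to 2713 TPM and 2161 to 3011 TPM in the GBM groups. In GBM IgG2a and in both splenic groups 12 of them, all but Sox2, were above 0 in at least 1 library. In GBM αPD1 + αGITR all 13 were, Sox2 included. Neutrophil markers summed to at most 29.3 TPM and the 8 B cell markers to 40.0 to 961 TPM. The sum of 20 housekeeping genes ran from 1935 TPM (splenic IgG2a 79_a) to 41534 TPM (79_b). These libraries are named again where a result rests on them.

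The 45 genes together took up 222 to 3961 TPM of a library. By the median over the 27 libraries Mcm6, a subunit of the replicative MCM2–7 helicase, stood highest at 88.1 TPM (range 1.71 to 310), followed by Mcm2 (59.5 TPM), Ccna2 (59.4 TPM), Cenpa (54.5 TPM) and Ube2c (51.8 TPM). At the other end were E2f1 at 1.02 TPM, cyclin E2 (Ccne2) at 1.93 TPM, Cenpe at 2.65 TPM and Kif11 at 2.73 TPM. The median gene of the S-phase part was at 22.1 TPM and that of the mitotic part at 9.57 TPM. Of the S-phase genes 8 of 19, and of the mitotic genes 6 of 24, were above 0 in every library. Neighbours in this order did not differ beyond their spread: the SD over libraries, for the median gene, was 1.54 on the log2(TPM + 1) scale in the S-phase part and 1.75 in the mitotic part.

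**Figure D2:**
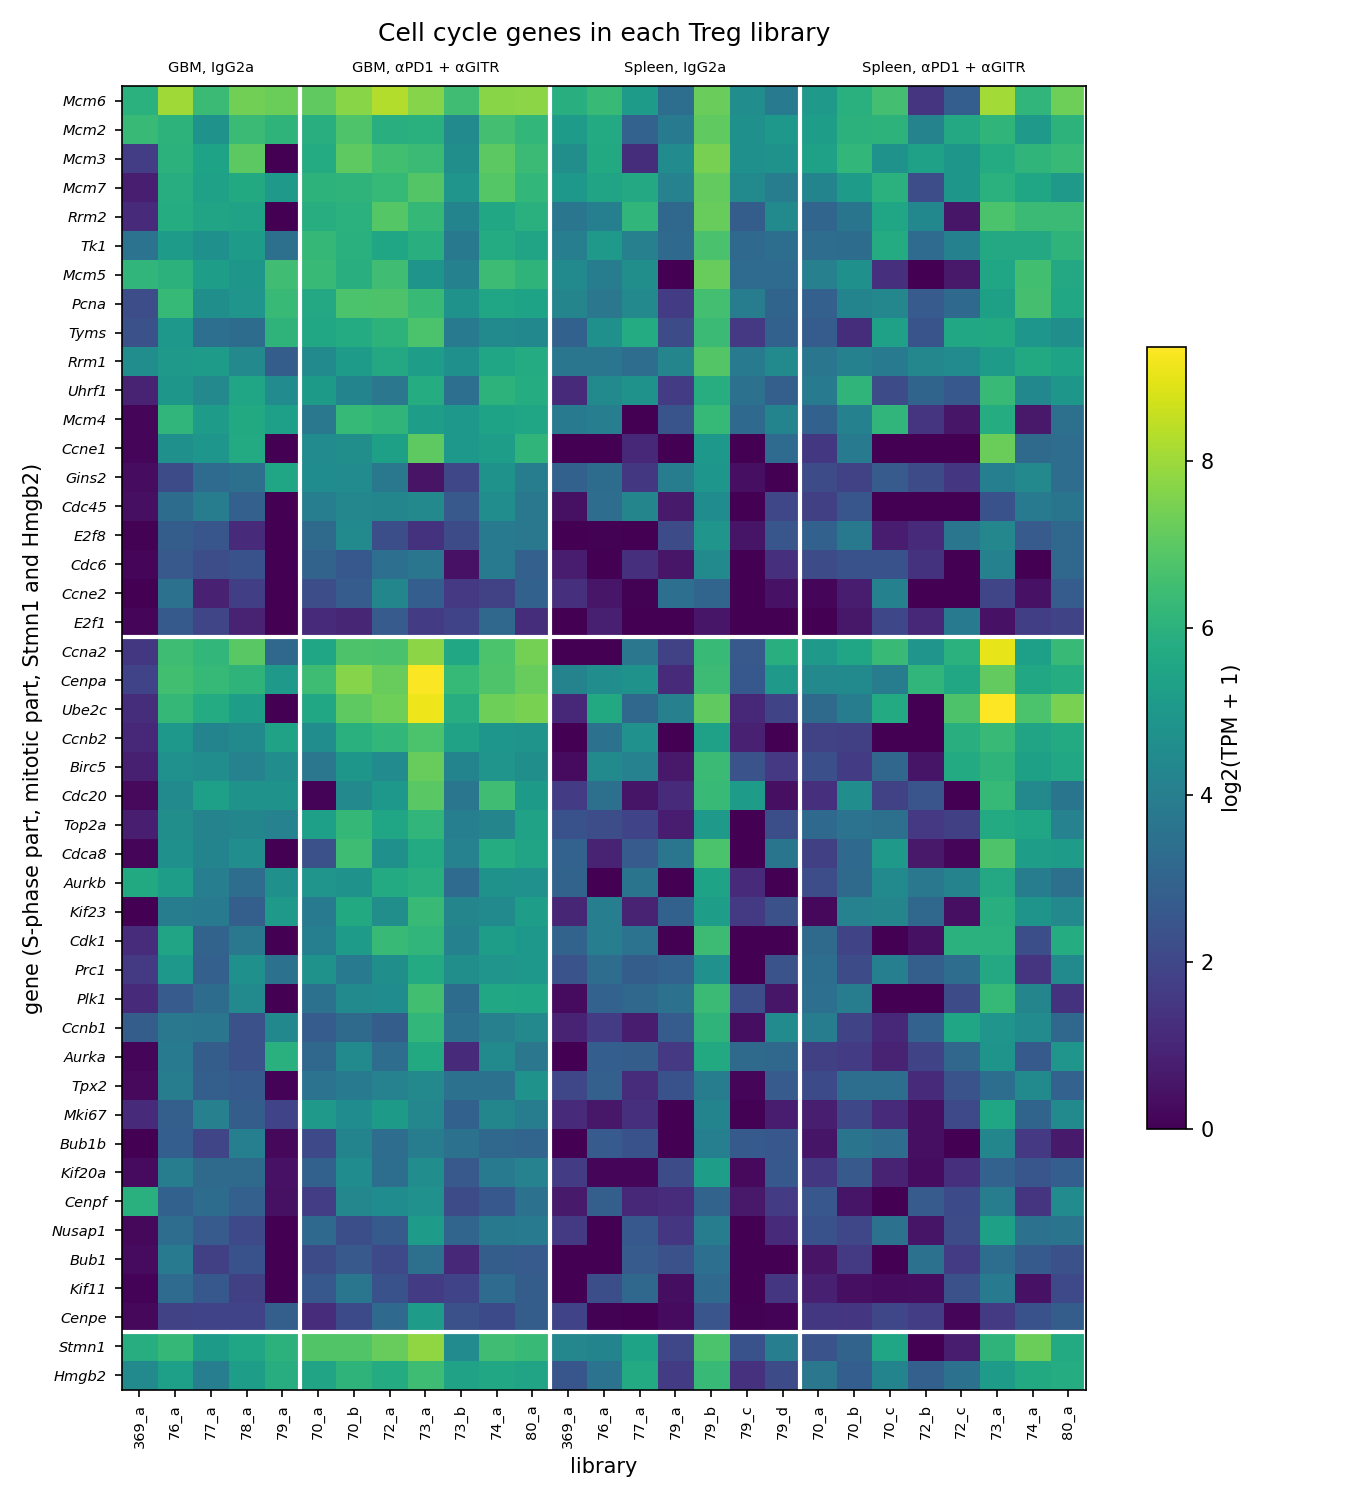
Color gives log2(TPM + 1) of each of the 45 genes (rows, in the S-phase part, the mitotic part and Stmn1 with Hmgb2, ordered by median) in each of the 27 libraries (columns, by group). GBM αPD1 + αGITR libraries have no gene at 0, while GBM IgG2a tumor_369_a and 79_a and most splenic libraries have many dark cells and splenic IgG2a 79_b stands out as bright.

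Levels differed widely between libraries of 1 group. Within the splenic IgG2a group, 79_b held the highest value of 43 of the 45 genes, and its S-phase and mitotic levels (the mean log2(TPM + 1) over the genes of the part) were 5.75 and 5.13, while the other 6 libraries lay between 2.35 and 3.41 and between 1.12 and 2.40. In the splenic αPD1 + αGITR group, 73_a, the library with the most erythroid transcripts, held the highest value of 26 genes, 17 of them mitotic, with a mitotic level of 5.42 against 1.76 to 4.06 in the other 7 libraries. Among the GBM αPD1 + αGITR libraries 73_a, with 6056 TPM of macrophage markers, held the highest value of 21 genes, again 17 of them mitotic, and 73_b the lowest value of 24. In GBM IgG2a mice, tumor_369_a held the lowest or a tied lowest value of 21 genes and 79_a of 19. A value of 0 was listed for 13 genes in 79_a and 3 in tumor_369_a, and for none in the other 3 libraries of that group. The part of the admixed transcripts in these levels was not tested.

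The S-phase level was 1.95, 4.85, 4.2, 4.42 and 3.10 in GBM IgG2a libraries tumor_369_a, 76_a, 77_a, 78_a and 79_a, with a mean of 3.70 ± 1.17 (SD, n = 5). In GBM αPD1 + αGITR libraries it ran from 3.68 to 5.27 with a median of 5.02 and a mean of 4.88 ± 0.56 (SD, n = 7). The corresponding means in spleen were 3.23 ± 1.17 (SD, n = 7) after IgG2a and 3.63 ± 1.01 (SD, n = 8) after treatment. The mitotic level was 1.19, 4.23, 3.69, 3.66 and 2.35 in the same GBM IgG2a libraries, with a mean of 3.02 ± 1.24 (SD, n = 5), and ran from 3.54 to 5.78 after treatment, with a mean of 4.50 ± 0.76 (SD, n = 7). In spleen it was 2.25 ± 1.35 (SD, n = 7) after IgG2a and 3.17 ± 1.18 (SD, n = 8) after treatment. For both parts GBM αPD1 + αGITR was the highest group and splenic IgG2a the lowest, and each pair of neighbouring groups overlapped.

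Mitotic and S-phase levels were then set against each other within each library, which takes out a scale factor that both share apart from the effect of the added 1. The mitotic level was below the S-phase level in 24 of 27 libraries. The difference of mitotic minus S-phase was -0.68 ± 0.11 (SD, n = 5) in GBM IgG2a, -0.38 ± 0.63 (SD, n = 7) in GBM αPD1 + αGITR, -0.98 ± 0.34 (SD, n = 7) in splenic IgG2a and -0.46 ± 0.57 (SD, n = 8) in splenic αPD1 + αGITR libraries. It was above 0 in GBM αPD1 + αGITR 73_a (0.81) and in splenic αPD1 + αGITR 72_c (0.35) and 73_a (0.34), which are the GBM treated library highest in macrophage markers and the 2 libraries highest in erythroid markers. All 4 groups overlapped in this difference. With Stmn1 and Hmgb2 counted as mitotic genes, the 4 means were -0.50, -0.25, -0.87 and -0.40, in the same order of groups.

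**Figure D3:**
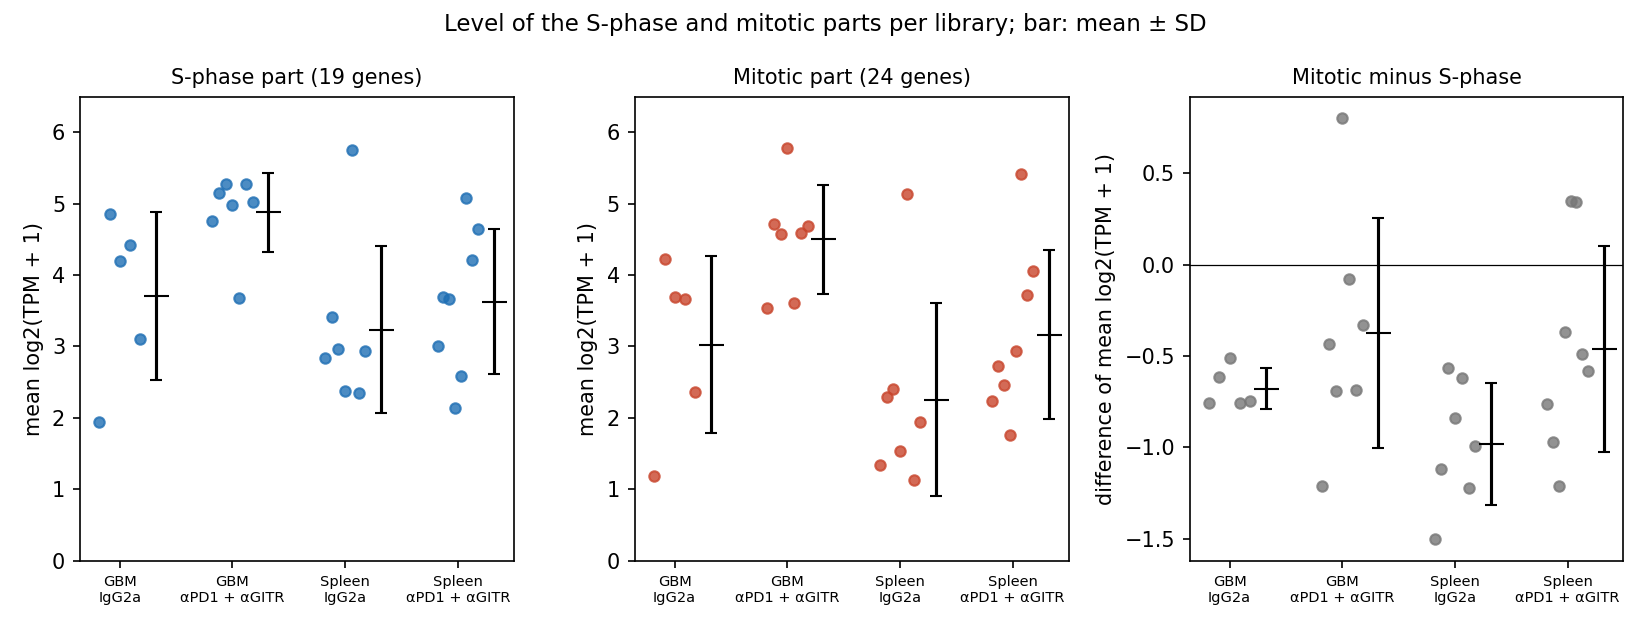
Points are libraries and bars the mean ± SD of the 4 groups, for the S-phase level, the mitotic level (both mean log2(TPM + 1) over the genes of the part) and their difference. GBM αPD1 + αGITR libraries sit at 3.68 to 5.27 and 3.54 to 5.78, and the difference is above 0 in 3 libraries.

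The first comparison was of αPD1 + αGITR with IgG2a in GBM Treg cells. Mitotic genes such as Ube2c, Cdk1 and Cenpa were higher after treatment by the unadjusted p, and of the S-phase part Ccne1, Rrm2, Cdc45, Mcm3 and Mcm7 were. A gene was tested where its mean was above 10 TPM in 1 of the groups compared, which held for 38 of 45 genes (the 7 not tested were Bub1, Kif11, Cenpe, Cdc6, Ccne2, E2f1 and E2f8). A gene that is high in 1 group passes this filter through that group, which was so for Mki67, Bub1b, Plk1, Kif20a, Tpx2, Nusap1 and Cdc45, all at a mean above 10 TPM after treatment only. The threshold of the study is a fold change over 2 with p below 0.05, and p was taken here before adjustment. At this threshold 17 of the 38 were higher and none lower, 12 of 21 mitotic and 5 of 15 S-phase genes, against 16.8% of all 7848 genes tested that were higher and 4.87% that were lower. No gene of the table passed an adjusted p of 0.05 (0% of 7848 by limma with Benjamini-Hochberg adjustment), so these are differences by the unadjusted p only. Among genes with a mean above 10 TPM in both groups, 12 of 31 members were higher (38.7%, 8 of them mitotic), against 14.2% of 5170 genes. By the exact permutation test 13 of the 17 had a p below 0.05, and Ccne1, Mcm3, Cdca8 and Ccna2 (p = 0.0581 to 0.0859) did not. The median log2 fold change was 1.66 in the mitotic part and 1.01 in the S-phase part, against 0.62 over all genes tested, and 37 of the 38 genes had a fold change above 0. The groups overlapped for each of the 38 members, while among all 7848 genes they did not overlap for 1.77% (treated higher) and 0.42% (treated lower).

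Genes of mitotic entry and chromosome segregation are given first. Ube2c, which hands ubiquitin to cyclin B and securin at the anaphase-promoting complex (mm10 chr2:164769898-164778822), was at 1.33, 73.9, 52.5, 36.0 and 0 TPM in GBM IgG2a libraries tumor_369_a, 76_a, 77_a, 78_a and 79_a. After treatment it ran from 47.7 to 560 TPM with a median of 156, and 5 of 7 treated libraries lay above all IgG2a libraries. The log2 fold change was 3.42 ± 0.94 (SE, limma p = 0.00159, adjusted p = 0.0977), with p = 0.00758 by a two-sided exact permutation test. Plk1, the polo-like kinase of mitotic entry, was at 1.14, 5.52, 8.85, 21.4 and 0 TPM in the same IgG2a libraries and at 8.95 to 91.2 TPM (median 22.2) after treatment. Its log2 fold change was 2.46 ± 0.79 (SE, limma adjusted p = 0.120). Cdk1, the kinase that cyclins A and B activate, was at 1.26, 42.7, 6.93, 12.3 and 0 TPM and then at 15.5 to 79.4 TPM (median 34.2), a log2 fold change of 2.47 ± 0.80 (SE, limma adjusted p = 0.122). For Plk1 and Cdk1, 76_a or 78_a reached into the treated range, while tumor_369_a and 79_a lay under it. The centromeric histone Cenpa was at 2.65, 92.1, 76.2, 66.4 and 31.3 TPM and at 75.5 to 626 TPM (median 143) after treatment, so that 5 of 7 treated libraries lay above all of the IgG2a group. Cenpa rose by the unadjusted p with a log2 fold change of 2.11 ± 0.71 (SE, limma adjusted p = 0.133).

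Among proliferation markers and spindle genes, Mki67, which encodes the antigen Ki-67, was at 1.16, 6.15, 15.9, 5.70 and 2.68 TPM in GBM IgG2a libraries and at 6.41 to 33.2 TPM (median 19.2) in treated ones. The log2 fold change was 1.78 ± 0.65 (SE, limma adjusted p = 0.151), and 5 of 7 treated libraries lay above all IgG2a libraries. Top2a, which untangles replicated DNA, was at 0.73 TPM in tumor_369_a, at 16.8 to 23.9 TPM in the other 4 IgG2a libraries and at 15.5 to 74.3 TPM (median 41.3) after treatment, a log2 fold change of 1.66 ± 0.69 (SE). Ccna2 was at 1.88, 87.8, 71.6, 125 and 7.73 TPM in the same 5 IgG2a libraries and at 46.1 to 212 TPM (median 103) after treatment, and Ccnb2 at 1.07, 31.1, 17.5, 20.8 and 40.7 TPM and at 23.1 to 103 TPM (median 40.9). These cyclins, A2 and B2, the activators of Cdk1, had log2 fold changes of 1.78 ± 0.79 and 1.5 ± 0.69 (SE), and that of Ccna2 had p = 0.0859 by the exact permutation test. Tpx2, which brings Aurora A to the spindle, was at 0.18, 14.7, 6.18, 5.33 and 0.06 TPM and then at 10.6 to 26.5 TPM (median 13.9). It had a log2 fold change of 2.02, the passenger protein borealin (Cdca8) of 2.21 (p = 0.0783 by the exact permutation test), the midzone kinesin Kif23 of 1.77 and the spindle protein Nusap1 of 1.76. Cyclin B1 did not pass the threshold, and Ccnb1 was at 5.85, 12.5, 11.7, 3.97 and 19.4 TPM in GBM IgG2a and at 5.68 to 72.1 TPM (median 10.7) in treated libraries. Aurora B (Aurkb) did not pass either, at 9.23 to 49.9 TPM (median 24.9) and 8.66 to 56.7 TPM (median 26.9), its highest IgG2a value being in tumor_369_a, where 21 members were lowest or tied for lowest. Survivin (Birc5), a partner of Aurora B in the passenger complex, was at 0.78 TPM in tumor_369_a, 16.8 to 25.8 TPM in the other IgG2a libraries and 12.2 to 145 TPM (median 24.2) after treatment, the highest being 73_a. Cdc20, the activator of the anaphase-promoting complex, was at 0.18 TPM in tumor_369_a, 21.3 to 38.0 TPM in the other 4 and 0.07 to 124 TPM (median 30.7) after treatment. Nusap1 was at 0.15, 9.27, 5.42, 3.15 and 0 TPM and at 3.70 to 34.6 TPM (median 8.24). The midzone protein Prc1, with a log2 fold change of 1.26 ± 0.64 (SE, limma adjusted p = 0.244), was at 1.98 to 30.7 TPM and 13.0 to 51.5 TPM. Birc5, Cdc20 and Prc1 did not pass the threshold either. The mitotic genes Aurka, Bub1b, Kif20a and Cenpf also did not pass, with log2 fold changes of 0.28 to 1.54. Of these, Cenpf was highest in tumor_369_a (59.9 TPM, against 0.34 to 8.90 TPM in the other 4 IgG2a libraries and 2.25 to 25.6 TPM after treatment).

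In the S-phase part, cyclin E1 (Ccne1), the partner of Cdk2 at the G1/S transition, was at 0.08, 24.8, 29.0, 51.2 and 0 TPM in GBM IgG2a libraries and at 21.9 to 130 TPM (median 35.8) after treatment. Its log2 fold change of 2.32 ± 0.92 (SE, limma adjusted p = 0.169) was accompanied by p = 0.0581 in the exact permutation test, and only 2 of 7 treated libraries lay above the IgG2a group. Rrm2, the regulatory subunit of ribonucleotide reductase, was at 1.21, 55.1, 43.2, 41.5 and 0 TPM and at 17.8 to 117 TPM (median 61.0) after treatment, a log2 fold change of 2.25 ± 0.89 (SE). Its partner subunit Rrm1 was at 22.8, 31.2, 34.1, 19.9 and 5.72 TPM and at 21.1 to 52.5 TPM (median 36.3), and did not pass the threshold. Cdc45, which joins the MCM helicase when origins fire, was at 0.29, 9.01, 14.5, 6.25 and 0 TPM and at 5.12 to 22.9 TPM (median 18.4). The helicase subunits fell on both sides of the threshold. Mcm3 and Mcm7 had log2 fold changes of 2.22 ± 0.94 (p = 0.0783 by the exact permutation test) and 1.63 ± 0.73 (SE), with Mcm3 at 2.25, 63.5, 42.6, 126 and 0 TPM in the IgG2a libraries and Mcm7 at 0.71 TPM in tumor_369_a and 32 to 56.0 TPM in the rest. By contrast Mcm2 was at 80.5, 64.7, 26.2, 82.9 and 67.5 TPM after IgG2a and 20.7 to 109 TPM (median 61.0) after treatment, and Mcm5 at 70.6, 64.1, 35.9, 30.3 and 90 TPM and 16.3 to 89.5 TPM (median 66.5). In tumor_369_a, therefore, Mcm3, Mcm4 and Mcm7 were at 0.08 to 2.25 TPM while Mcm2, Mcm5 and Mcm6 were at 62.9 to 80.5 TPM. Pcna, the sliding clamp, was at 3.66 to 80.7 TPM (median 28.4) and 26.4 to 107 TPM (median 49.2). Thymidine kinase (Tk1) was at 10 to 35.0 TPM and 12.9 to 73.9 TPM, with 6 of 7 treated libraries above the IgG2a group, and thymidylate synthase (Tyms) at 4.04 to 67.3 TPM and 13.2 to 103 TPM, and neither passed the threshold. The maintenance methylation factor Uhrf1 was at 0.85, 30, 20.4, 46.0 and 22.1 TPM and at 9.71 to 65.8 TPM (median 33.5). Gins2, of the GINS complex at replication forks, and Mcm4 and Mcm6 did not pass either, with log2 fold changes of 0.49 to 0.85.

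Genes too low to be tested were given by their levels alone. The licensing factor Cdc6 was at 0 to 5.10 TPM (median 3.66) in GBM IgG2a and 0.38 to 13.9 TPM (median 6.84) in treated libraries. The activator E2f1 was at 0 to 5.36 TPM (median 0.91) and 1.02 to 7.77 TPM (median 2.17), and the repressor E2f8 at 0 to 5.79 TPM (median 1.24) and 1.57 to 21.5 TPM (median 8.54). The spindle checkpoint kinase Bub1 was at 0 to 13.2 TPM (median 2.45) and 1.13 to 9.99 TPM (median 5.11). Of the others, the motor proteins Kif11 and Cenpe were at 0.01 to 8.74 TPM after IgG2a and 1.30 to 34.2 TPM after treatment, and Ccne2 at 0 to 10.6 TPM and 1.93 to 18.8 TPM. All 7 were thus above 0 in each GBM αPD1 + αGITR library, with a lowest value of 0.38 TPM (Cdc6). Stmn1, a microtubule-destabilizing protein, was at 33.6 to 73.8 TPM and 21.8 to 223 TPM (median 111), and the chromatin protein Hmgb2 at 15.2 to 55.5 TPM and 41.5 to 87.0 TPM, and neither passed the threshold.

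The count of 17 rested on 1 control library and on the scaling. Without GBM IgG2a tumor_369_a, the library with the fewest features above 1 TPM, 6 of 38 genes were higher (15.8%), all of them mitotic (Ube2c, Cdk1, Mki67, Cenpa, Plk1 and Tpx2), against 10.9% of all genes, and the mitotic median was 0.99. Without 79_a it was 11 (28.9%, against 20.9% of all genes), and without 79_a and the treated library 73_a, the 2 GBM libraries richest in macrophage transcripts, 9 of 37 were (24.3%), against 18% of all. Scaling to 20 housekeeping genes left 4 genes (Ube2c, Cdk1, Cenpa and Plk1, 10.5% against 5.11% of all genes) and quantile normalization 4 (10.5% against 6.64%). TMM-type factors left 5 (13.2% against 6.1%) and library weights gave 7, of which 6 were among the 17 (18.4% against 12.3%). Relative to the median of all genes the mitotic median was 1.04 higher on the log2 scale as reported. It was 0.20 to 1.25 higher over the other ways of processing that kept a filter. The S-phase median was 0.39 higher as reported and 0.02 to 0.41 higher over those. The lowest of both came with library weights. With no filter on low values they were 1.5 and 1.09 higher, where the median of all 40755 genes was 0.02.

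**Figure D4:**
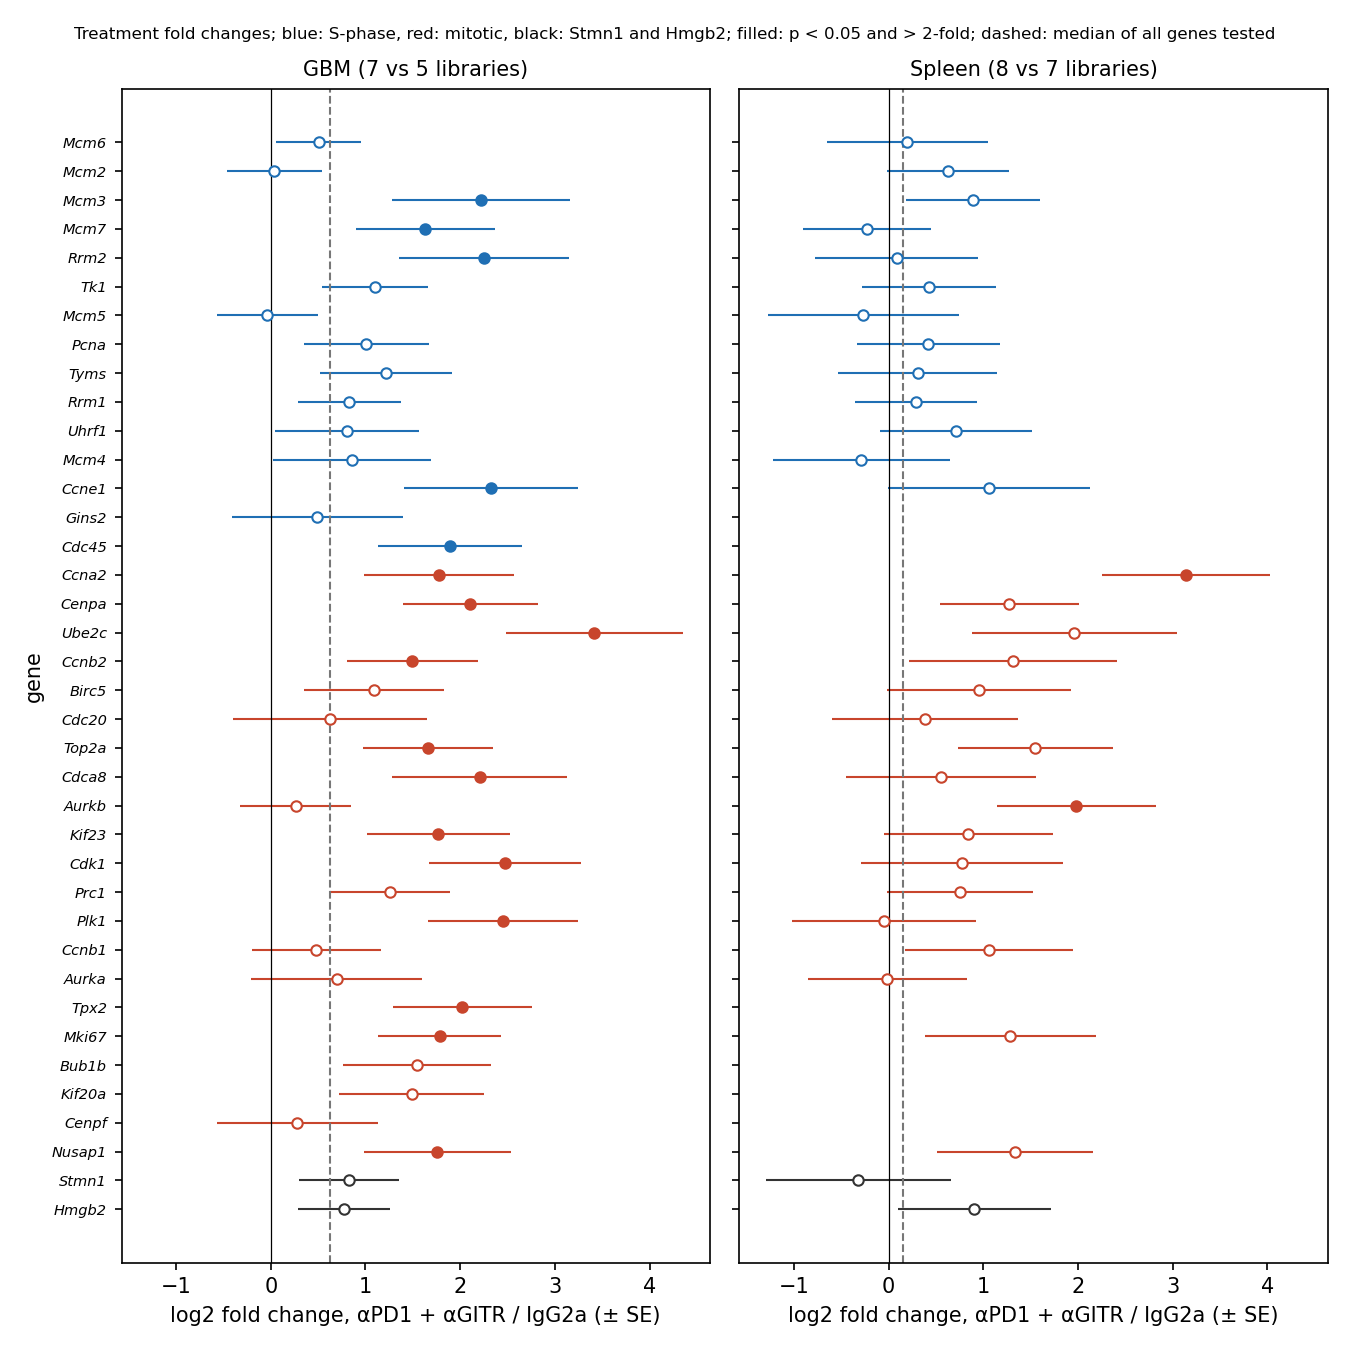
Log2 fold change of αPD1 + αGITR over IgG2a (± SE) for each gene tested in GBM (left) and spleen (right), blue for the S-phase part, red for the mitotic part and black for Stmn1 and Hmgb2. Filled points pass the threshold of the study, 17 in GBM and 2 in spleen, and the dashed lines are the medians of all genes tested at 0.62 and 0.15.

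The same comparison was made in splenic Treg cells. Ccna2 and Aurkb were the only members past the threshold and both were higher after treatment. Aurkb entered the test through the treated group, where its mean was 17.0 TPM against 8.83 TPM after IgG2a, and among genes above 10 TPM in both groups 1 of 24 members was higher (4.17%, against 0.535% of all). Of 45 genes 32 were tested, and 2 of these (6.25%, both of the 17 mitotic genes) were higher and none lower, against 1.49% of all 6634 genes that were higher and 1.04% that were lower. No gene passed an adjusted p of 0.05 (0% of 6634). The groups overlapped for each of the 32 members, and among all genes they did not overlap for 0% (treated higher) and 0.0151% (treated lower). The median log2 fold change was 1.06 in the mitotic part, 0.31 in the S-phase part and 0.15 over all genes, and 26 of 32 genes had a fold change above 0. Of 5 erythroid markers tested, 4 had a fold change above 0, with a median of 1.49. Of these markers 1 was past the threshold (20%), and none had a p below 0.05 by the exact permutation test. Their part in the members' differences was not tested.

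Ccna2, cyclin A2, which acts in both S and M phase (chr3:36564865-36572150), was at 0 to 79 TPM (median 5.06) in splenic IgG2a libraries and at 28.6 to 511 TPM (median 54.0) after treatment. Its log2 fold change was 3.14 ± 0.89 (SE, limma p = 0.0014, adjusted p = 1.00), with p = 0.00979 in the exact permutation test. The value of 511 TPM came from 73_a, and only 2 of 8 treated libraries lay above all IgG2a libraries, since 79_b was at 79 TPM and 79_d at 59.4 TPM. Aurkb, the kinase of the passenger complex (chr11:69045647-69051664), was at 0 in 3 of 7 IgG2a libraries, with a median of 1.18 and a highest value of 42.6 TPM in 79_b, and at 3.58 to 48.8 TPM (median 13.4) after treatment, a log2 fold change of 1.98 ± 0.84 (SE, limma adjusted p = 1.00). Ube2c was at 1.07 to 136 TPM (median 7.95) and 0 to 657 TPM (median 78), and Mki67 at 0 to 17.6 TPM (median 0.64) and 0.29 to 45.5 TPM (median 3.17). Both had their highest treated value in 73_a and their highest control value in 79_b, and neither passed the threshold. For Top2a the values were 0 to 32.4 TPM (median 3.69) and 1.97 to 52.5 TPM (median 10.4). Of the S-phase part, Mcm2 was at 6.74 to 133 TPM (median 30.6) and 17.3 to 68.9 TPM (median 56.5), Mcm7 at 14.5 to 139 TPM (median 30.8) and 3.65 to 62.2 TPM (median 33.0), and Rrm2 at 5.83 to 145 TPM (median 15.6) and 0.50 to 105 TPM (median 32.2). Plk1, Aurka, Mcm4, Mcm5, Mcm7 and Stmn1 were the 6 of the 32 tested members with a log2 fold change below 0, between -0.32 and -0.02. Bub1b, Kif20a, Tpx2, Cenpf, Gins2 and Cdc45 joined the 7 genes named above as too low to be tested in spleen. E2f1 was at 0 in 5 of 7 IgG2a libraries (highest 0.76 TPM) and in 1 of 8 treated ones (highest 13.3 TPM), and Bub1 at 0 in 4 and 1. Cyclin E1 was at 0 in 4 of 7 IgG2a libraries and in 3 of 8 treated ones, with 152 TPM in 73_a.

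The count changed with the libraries left out. Without the control 79_b, 6 of 31 genes were higher (19.4%, all mitotic: Ube2c, Top2a, Cenpa, Ccna2, Aurkb and Nusap1), against 2.43% of all genes. Of these, Top2a, Aurkb and Nusap1 passed the filter through the treated group only. Their IgG2a means were 6.76, 8.83 and 3.52 TPM with 79_b, their highest IgG2a library, still included. The count with the filter in both groups was not made without 79_b. Without the treated library 73_a, in which erythroid markers summed to 1437 TPM, Ccna2 alone remained of 28 genes tested (3.57%), against 1.32% of all, with a log2 fold change of 2.72. The count was also 1 of 33 without the control 79_d (3.03%, against 1.12% of all genes). It was 4 of 32 without the treated library 72_b (12.5%, against 1.86% of all genes). The mitotic median was 1.66 without 79_b and 0.74 without 73_a, and the S-phase median 0.74 and 0.14. The S-phase median was 0.04 to 0.62 on leaving out 1 of the other libraries.

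**Figure D5:**
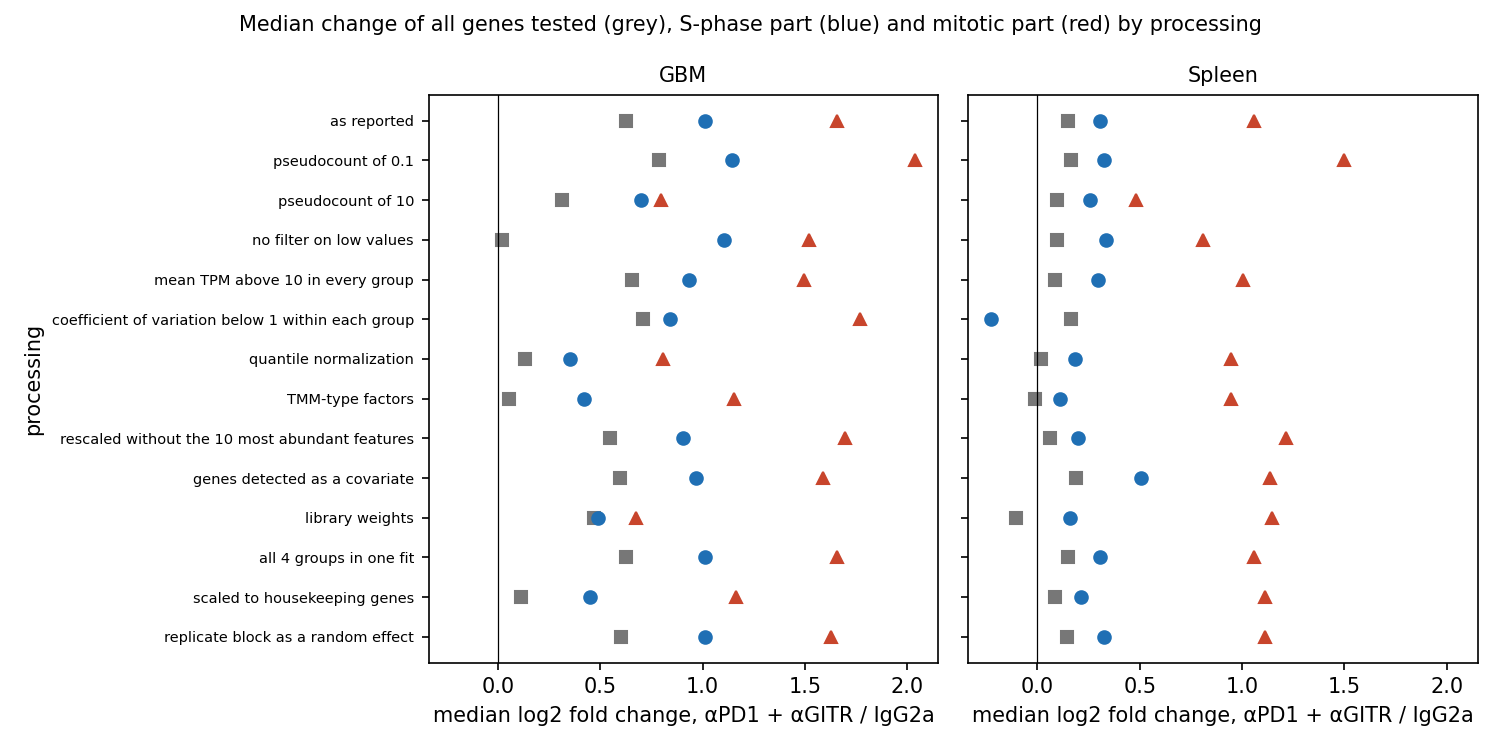
Median log2 fold change of αPD1 + αGITR over IgG2a under each way of processing, for all genes tested (grey squares), the S-phase part (blue circles) and the mitotic part (red triangles). In GBM the median of all genes ranges from 0.02 to 0.78, and the mitotic median stays to the right of it in each row of both panels where it was computed.

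GBM and splenic Treg cells were compared within each treatment, as the design implies. After IgG2a, 3 of 32 genes tested (9.38%) were higher in GBM and none lower, against 7.63% of all 7380 genes higher and 2.3% lower. Of the markers of other cells, 4 of 5 tumor and glial and 2 of 11 macrophage and microglia markers were higher in GBM and 1 of 2 erythroid markers lower, and their part in the members' differences was not tested. No member passed an adjusted p of 0.05, which 0.569% of all genes did. The share of members thus stood near that of all genes. The 3 were Aurkb, Mcm6 and Mcm5. Aurkb passed the filter through GBM only (mean 27.2 TPM against 8.83 TPM in spleen), and with a mean above 10 TPM in both tissues 2 of 24 members were higher (8.33%, against 5.54% of all). Aurkb was at 49.9, 37.0, 15.1, 9.23 and 24.9 TPM in the GBM libraries tumor_369_a, 76_a, 77_a, 78_a and 79_a and at 0 to 42.6 TPM (median 1.18) in spleen, a log2 fold change of 2.72 ± 0.98 (SE, limma adjusted p = 0.301). Mcm6 (chr1:128331590-128359664) was at 62.9, 262, 82.8, 164 and 152 TPM and at 9.36 to 147 TPM (median 35.6) in spleen, with 1.80 ± 0.79 (SE) on the log2 scale, and 3 of 5 GBM libraries lay above all splenic ones. Mcm5 was at 30.3 to 90 TPM (median 64.1) in GBM and 0 to 144 TPM (median 14.4) in spleen, with 1.96 ± 0.91 (SE). The highest splenic value of all 3 was in 79_b. The medians were 0.95 in the mitotic part, 0.56 in the S-phase part and 0.48 over all genes. Without 79_b, 8 of 31 genes were higher (25.8%, against 10.9% of all), without GBM IgG2a tumor_369_a 9 of 31 (29.0%, against 10.3%), and with library weights 15 of 32 (46.9%, against 12.9%). On leaving out 1 library at a time the count ran from 1 to 9. It was 1 of 32 (3.12%) without GBM 76_a, splenic 79_a or splenic 79_c (against 5.88% to 6.32% of all), with housekeeping scaling (against 3.92%) or with the replicate block (against 6.29%). The S-phase median was 0.97 without 79_b, 1.04 without tumor_369_a and 0.31 without 79_d, and the mitotic median 1.54 without 79_b.

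After αPD1 + αGITR, 18 of 38 genes (47.4%) were higher in GBM than in spleen and none lower, against 33.9% of all 7506 genes higher and 6.31% lower. Of the 20 housekeeping genes 10 were higher (50%), 7 of them with an adjusted p under 0.05 (35%), as were 6 of 10 macrophage and microglia markers and 2 of 3 tumor and glial markers, while 3 of 5 erythroid markers were lower. The part of these differences in those of the members was not tested. These were 7 of 15 S-phase genes, 9 of 21 mitotic genes and both Stmn1 and Hmgb2. An adjusted p under 0.05 was reached by 6 of the 38 (15.8%), against 17.5% of all genes, a share no larger than that of the whole table. No member reached it with the replicate block, quantile normalization, TMM-type factors or housekeeping scaling. The 6 were Ccne1 (log2 fold change 3.01 ± 0.86, SE, limma adjusted p = 0.0238), Cenpa (1.87 ± 0.55), Cdc45 (2.23 ± 0.68), Kif20a (1.86 ± 0.60), Stmn1 (2.74 ± 0.89) and Mcm4 (2.21 ± 0.77). Cdc45 and Kif20a, and Bub1b among the 18, passed the filter through GBM only, with splenic means of 4.55, 3.36 and 5.27 TPM. With a mean above 10 TPM in both tissues 15 of 31 members were higher (48.4%, against 32.3% of all) and 2 had an adjusted p under 0.05 (6.45%, against 11.4%). Ccne1 was at 21.9 to 130 TPM (median 35.8) in GBM and at 0 to 152 TPM (median 5.17) in spleen, Cenpa at 75.5 to 626 TPM (median 143) and 14.8 to 139 TPM (median 46.8), and Stmn1 at 21.8 to 223 TPM (median 111) and 0 to 154 TPM (median 25.5). Cdc45 was at 5.12 to 22.9 TPM in GBM and 0 to 13.8 TPM in spleen, with 5 of 7 GBM libraries above all splenic ones, and the cytokinesis kinesin Kif20a at 5.08 to 23.2 TPM and 0.23 to 6.74 TPM, also with 5 of 7. Mcm4 was at 12.6 to 77 TPM (median 41.9) and 0.48 to 70.7 TPM (median 8.30). Higher by the unadjusted p were also Mcm5, Mcm6, Mcm7, Pcna, Hmgb2, Mki67, Top2a, Plk1, Ccnb2, Prc1, Cdk1 and Bub1b. The medians were 1.48 in the mitotic part, 1.23 in the S-phase part and 0.95 over all genes, so the members' medians lay 0.28 (S-phase) and 0.52 (mitotic) above that of the table. When libraries were scaled to housekeeping genes, these medians were 0.54, 0.10 and -0.13, and 2 genes (Ccne1 and Stmn1) remained past the threshold (5.26%, against 6.3% of all genes). Without splenic 73_a, 17 members had an adjusted p under 0.05 (44.7%, against 30.1% of all genes) and 24 were higher (63.2%, against 37.0% of all genes). Without GBM 73_a, no member had an adjusted p under 0.05, against 9.38% of all genes. These counts, 17 and 0, were the highest and lowest on leaving out 1 library at a time. The share of all genes moved as well.

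Whether treatment acted differently in the 2 tissues was tested by an interaction of tissue and treatment over all 27 libraries. None of 38 members passed the threshold in either direction, against 6.8% of all 8687 genes with a larger and 5.35% with a smaller change in GBM, and no gene passed an adjusted p of 0.05 (0% of 8687 by limma). No member had an unadjusted p under 0.05 either. The members with the smallest p were Cdc45 (log2 difference of the fold changes 2.30 ± 1.18, SE, limma adjusted p = 0.434), Plk1 (2.51 ± 1.33) and Mcm7 (1.86 ± 1.01), all with larger changes in GBM. Aurkb and Ccna2 had differences of -1.72 ± 1.07 and -1.36 ± 1.29 (SE). Thus 17 genes past the threshold in GBM and 2 in spleen were not shown to differ between the tissues. The median difference was 0.68 in the S-phase part and 0.50 in the mitotic part, against 0.45 over all genes. Without tumor_369_a the mitotic median was 0.06, and without splenic 79_b it was 0.15 and the S-phase median 0.27.

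Further cell cycle genes were taken from 4 lists, also chosen with earlier results of these data known. Of 30 other DNA replication genes 21 were tested in GBM, and 11 (52.4%) were higher after treatment and none lower, against 16.8% and 4.87% of all genes. These had the smallest p in Slbp (histone mRNA binding, log2 fold change 1.85 ± 0.60, SE), Dbf4 (the activator of Cdc7 kinase, 2.07 ± 0.72) and the clamp loader subunit Rfc3 (1.95 ± 0.69), and the list's median was 1.70. Rfc3 passed the filter through the treated group only. In spleen 15 of the 30 were tested and 1 was lower (1.04% of all genes were), the chromatin assembly subunit Chaf1b (-1.89 ± 0.87, SE). By the exact permutation test no gene of this list had a p below 0.05 in spleen. In the interaction 4 of 21 (19%) were larger in GBM, against 6.8% of all genes, and these were Chaf1b (3.87 ± 1.26, SE, limma adjusted p = 0.314), Orc6, Dut and Pold1. Of 56 other mitotic genes 32 were tested in GBM and 11 (34.4%) were higher and none lower, against the same 16.8% and 4.87%, with a median of 1.25. Cdc25b, the phosphatase that activates Cdk1, was at 0 to 28.2 TPM (median 7.68) in GBM IgG2a and 21.6 to 97.6 TPM (median 46.3) in treated libraries, with a log2 fold change of 2.94 ± 0.74 (SE, limma adjusted p = 0.0977). It was also the 1 of 21 mitotic genes of that list that was higher in spleen (1.92 ± 0.80, SE), where 1.49% of all genes were. The condensin subunit Smc2 (2.48 ± 0.73) and lamin B1 (Lmnb1, 1.87 ± 0.64) followed in GBM.

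G1 genes and inhibitors were taken from 2 further lists. Of 12 G1 cyclins, kinases and regulators 10 were tested in GBM, and the phosphatase Cdc25a (2.11 ± 0.80, SE) was higher after treatment at the threshold (16.8% of all genes were), having passed the filter through the treated group only, while 9 were tested in spleen and none passed. Of 17 inhibitors and quiescence genes 9 were tested in GBM, and 3 (33.3%) were higher after treatment: the pocket protein Rbl2 (1.96 ± 0.65, SE), the antiproliferative factor Btg1 (1.71 ± 0.63) and the Cdk inhibitor p27 (Cdkn1b, 1.42 ± 0.63). All 7 treated libraries lay above all IgG2a libraries for Rbl2 (25.3 to 77.5 TPM against 0.47 to 18.9) and for Cdkn1b (28.6 to 37.7 TPM against 1.01 to 27.8), as they did for 1.77% of all genes. None of 8 passed in spleen. In the interaction 3 of 10 were larger in GBM (6.8% of all genes were), Rbl2 (2.65 ± 0.92, SE), Btg1 (2.44 ± 0.89) and Klf2 (2.87 ± 1.16). Between tissues, the p53 target p21 (Cdkn1a) was the list's largest difference. Cdkn1a was at 2.41 to 286 TPM (median 34.8) in GBM IgG2a and 10.6 to 158 TPM (median 34.6) in GBM treated libraries, and in spleen at 0 to 2.89 TPM (median 0.57) and 0 to 20.6 TPM (median 0). Its log2 fold changes were 4.29 ± 0.98 (SE, limma adjusted p = 0.0284) after IgG2a and 4.22 ± 0.73 (SE, adjusted p = 0.000910) after treatment. Cdkn1a and Cdkn2c entered these tests through GBM only, with splenic means of 0.973 and 2.76 TPM (Cdkn1a) and 2.11 and 1.80 TPM (Cdkn2c) after IgG2a and treatment, and Klf2 after IgG2a through spleen only. Cdkn2c, the Cdk4/6 inhibitor p18, was higher by 2.81 ± 0.70 (SE, adjusted p = 0.0120) after treatment, at 2.70 to 32.4 TPM (median 16.4) against 0 to 10.7 TPM (median 0.535). After IgG2a, Cdkn2c had a log2 fold change of 3.26 ± 0.93 and the quiescence factor Klf2 of -2.49 ± 1.01 (SE, unadjusted p = 0.0185). After treatment 33.9% of all genes were higher in GBM, and 17.5% had an adjusted p under 0.05. Of the G1 genes 6 of 10 were higher (60%), 3 of them (30%) with an adjusted p under 0.05: cyclin D2 (Ccnd2, 1.91 ± 0.50), cyclin D3 (Ccnd3, 1.32 ± 0.43) and Cdk6 (1.98 ± 0.65). Rbl2 (1.76 ± 0.53) and E2f4 (2.05 ± 0.71), which act together in quiescence complexes, had adjusted p-values of 0.0295 and 0.0479. Other replication genes were higher in 13 of 21 (61.9%), 3 of them with an adjusted p under 0.05 (14.3%, below the share of all genes): the licensing inhibitor geminin (Gmnn, 2.38 ± 0.72), DNA ligase I (Lig1, 2.06 ± 0.64) and Dbf4 (2.42 ± 0.78). Other mitotic genes were higher in 13 of 29 (44.8%), with adjusted p-values under 0.05 for the kinetochore scaffold Knl1 (3.19 ± 0.84), Lmnb1 (2.22 ± 0.58), Cks2 (2.36 ± 0.68), Tacc3 (2.57 ± 0.79), Pbk (2.52 ± 0.80) and Incenp (1.84 ± 0.59), of which Pbk passed the filter through GBM only. In the IgG2a groups, 0 of 14 and 4 of 21 (19%) were, against 7.63% of all genes, the 4 being Ckap2l, Pttg1, Racgap1 and Cdca3, and all of these but Racgap1 passed the filter through GBM only.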

How the data were processed

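Treg cells were sorted from spleens and CT2A tumors, and polyA RNA was made into Smart-Seq2 libraries that were run on a NextSeq. Per the labels and methods, the authors used bcl2fastq, aligned reads to mm10 with TopHat2 and estimated TPM with RSEM. Versions and the annotation are not given in the sources used here. The deposited table holds TPM + 1, and 1 was subtracted here. TPM keeps no read depth, so no interval or floor was computed, and a gene without signal is only listed at 0. Of 28 libraries described, 27 had a named column, and 1 column without a name was not used. Numbers in labels recur between spleen and GBM and within groups, and the labels do not say what they mark.

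Tests were run on log2(TPM + 1) with limma 3.58.1 (R 4.3.3, trended prior) on the 2 groups compared, or on all 4 for the interaction. Fold changes on this scale understate changes of low genes. Genes with a mean above 10 TPM in at least 1 compared group were tested, and p-values were adjusted by Benjamini-Hochberg over all of them. Exact permutation tests were two-sided, with a smallest possible p of 0.00126 for GBM treatment and 0.000155 for spleen treatment. The scripts were tested on simulated data. Genes of all parts and the related lists were chosen with earlier results of these data known. Named were all members, those of a fixed list and with the 5 smallest p per part by their levels in each library and the rest by range, and related genes with an adjusted p under 0.05 or else the 3 smallest p per list. Alternatives were other pseudocounts (0.1 and 10), filters, scalings, covariates, weights, pooled fits, a replicate block and leaving out libraries. Scaling to housekeeping genes and leaving out marker-rich libraries were added after seeing the data. Motif counts used Python 3.11.15.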

Additional observations from a re-analysis of the deposited data

Results flagged for a closer look

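In groups of 4 to 10 libraries, a library was marked where its gap to the nearest other library, relative to the range of the group, passed the 95% critical value of Dixon. This marked 22 of 192 sets of values, where chance marks about 1 in 20. All values here are log2(TPM + 1).

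GBM IgG2a tumor_369_a stood below the rest of its group for 7 genes: Top2a (0.79), Ccnb2 (1.05), Cdc20 (0.24), Birc5 (0.83), Mcm4 (0.11), Mcm7 (0.77) and Uhrf1 (0.89). In the same group, 77_a stood low for Mcm2 (4.76). GBM αPD1 + αGITR 73_b stood low for the S-phase level (3.68) and for Mcm2 (4.44), Mcm7 (4.87), Tk1 (3.80), Cdc6 (0.46) and Cdc45 (2.61), and 73_a stood high for Birc5 (7.19).

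Splenic IgG2a 79_b stood high for the S-phase level (5.75), the mitotic level (5.13), Mki67 (4.21), Rrm1 (6.84) and Cdc6 (4.49). Among splenic αPD1 + αGITR libraries, 73_a stood high for Ccna2 (9.00) and 72_b low for Mcm7 (2.22). The causes were not tested.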

How the results depend on the processing

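No member past the threshold changed direction under the alternatives run, and the cause of the shifts was not tested. Medians that crossed 0 were the S-phase median in spleen (-0.23 with the coefficient of variation filter, which left 1 member) and the mitotic median of the interaction (down to -0.21 with library weights). In GBM, the 17 members higher after treatment became 11 with a pseudocount of 10 (28.9% against 9.15% of all genes), without the 10 most abundant features (28.9% against 10.5%) or with a coefficient of variation below 1 (of 23 tested, 47.8% against 20.1%, so that fewer were tested), 4 with quantile normalization or housekeeping scaling, 5 with TMM-type factors, 7 with library weights (6 of them among the 17; mitotic median 0.67) 9 without the marker-rich libraries and 13 by the exact permutation test, with a range of 6 to 21 on leaving out 1 library. In spleen, 2 became 1 with a mean above 10 TPM in every group or without the marker-rich library and 0 of 1 tested with the coefficient of variation filter (range 1 to 6). Between tissues after IgG2a, 3 became 1 with the coefficient of variation filter (of 2 tested) or housekeeping scaling and 15 with library weights, 2 of these with an adjusted p under 0.05 (range 1 to 9). After αPD1 + αGITR, 18 became 10 with a pseudocount of 10 (26.3% against 19.4% of all genes), 6 with the coefficient of variation filter (of 14 tested, 42.9% against 33.3%), 5 with quantile normalization (13.2% against 13.0%), 4 with TMM-type factors (10.5% against 12.1%) and 2 with housekeeping scaling (5.26% against 6.3%, S-phase median 0.10), and the 6 with an adjusted p under 0.05 became 0 with no filter (against 0.6% of all genes), quantile normalization (14.6%), TMM-type factors (7.99%), rescaling without the 10 most abundant features (7.89%) or housekeeping scaling (6.01%), 1 with a pseudocount of 0.1 (2.63% against 9.03%) or genes detected as a covariate (2.63% against 10.8%), 2 with the stricter filter (6.45% against 11.4%) or all 4 groups in one fit (5.26% against 9.65%), 3 with the coefficient of variation filter (21.4% against 19.6%), 10 without marker-rich libraries (27% against 20.8%) and 13 with library weights (34.2% against 28.3%, range 0 to 17). In the interaction, leaving out 1 library gave 0 to 3 members past the threshold with a larger change in GBM. With all libraries in, 6.8% of all genes had such a change. The coefficient of variation filter left 1 S-phase gene at 1.86. Deviations from the group mean in GBM and splenic libraries of the same label had r from -0.16 to 0.18. Only for 76_a (0.18 against 0.12) and 73_a (0.09 against 0.04) did this exceed the highest r with another label. Values this small do not tell whether 2 libraries share an animal. The numbers were not taken as pairs, since the design text states different mice. With a replicate block, 1 member was higher in GBM after IgG2a, and 0 had an adjusted p under 0.05 after treatment, against 6.59% of all genes. As a random effect, the block gave 16 higher after treatment in GBM (42.1%, against 13.8% of all genes). In spleen it gave 2 (6.25%, against 1.30%). Read depth is unknown, so low members were not separated from undetected ones.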
